A study of Rattus norvegicus with 2 samples.

Results

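The genes described here encode the proteasome and enzymes that attach ubiquitin, as measured in cultured rat carotid body cells. The proteasome is a barrel-shaped protease that degrades proteins marked with ubiquitin chains. Its 20S core is built from outer rings of alpha subunits, which gate the entrance, and inner rings of beta subunits, some of which carry the catalytic sites. In cells exposed to interferon, catalytic beta subunits can be replaced by immunoproteasome subunits, which favour peptides for presentation on class I molecules of the major histocompatibility complex. In well-oxygenated cells the hypoxia-inducible factor HIF-1 alpha is itself ubiquitinated through the VHL protein and degraded by the proteasome, so this pathway is part of oxygen sensing. The members were the spots whose deposited gene name contains the word proteasome or ubiquitin outside the control row of the membrane. This rule took 16 of the 1185 genes. They were all 7 alpha subunits (Psma1 to Psma7), 5 constitutive beta subunits (Psmb1, Psmb2, Psmb3, Psmb4 and Psmb6) and 2 immunoproteasome beta subunits (Psmb8 and Psmb9). The activator subunit Psme1 (PA28 alpha) and the ubiquitin-conjugating enzyme Ube2b were the other members. The beta classes hold only the subunits that the rule took and are not complete. Current symbols were assigned by hand from the deposited names.

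Cells were dissociated from carotid bodies of Sprague Dawley rats of about 100 g, with 16 carotid bodies pooled per culture, and grown in medium with horse serum, fetal bovine serum and nerve growth factor in both groups. The normoxia group was kept at 21% oxygen and the chronic hypoxia group at 1% oxygen, each with 7 days of culture. Each group was read on 3 Atlas Rat nylon membranes hybridised with 32P-labelled cDNA from amplified RNA. The labels do not say whether the 3 membranes of a group came from separate cultures, so the p-values below reflect only how far membranes of a group vary, and this variation may be technical. No sorting step is described, and in such mixed cultures fewer cells of a type cannot be told apart from less RNA per cell.

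The membranes differed in background and in the number of genes above it. Median intensity was between 1704 and 3409 on 5 membranes and 16411 on chronic hypoxia membrane 3, whose lowest value was 14591 against at most 412 on the others. A gene counted as above background where it lay over 3 spreads above the membrane median, with the spread taken from the values under that median. Between 72 genes (chronic hypoxia membrane 2) and 205 genes (normoxia membrane 3) met this rule on a membrane. Rank correlations across genes, which are not independent replicates, were between 0.267 and 0.580 for 14 pairs of membranes and 0.772 for chronic hypoxia membranes 1 and 3. Values on 2 groups of membranes came in regular steps, of 51.5 on normoxia membrane 1 and chronic hypoxia membrane 1 (the first scan format) and of 103 on normoxia membranes 2 and 3 and chronic hypoxia membrane 2 (the second). No label names a scan format: the term stands here for these step sizes alone, and chronic hypoxia membrane 3 has neither step. Values by scan format therefore compare 1 chronic hypoxia membrane with 1 normoxia membrane in the first format and with 2 in the second. Chronic hypoxia membrane 3 is in neither value. In a fit with the format as a block it adds nothing to the group difference, which rests on the same membranes as the values by format. Of 6 chemoreceptor cell markers, 3 (Slc6a3, Dbh and Cpe) had signal on each of the 6 membranes and 3 (Slc18a2, Chga and Scg2) on none.

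Proteasome and ubiquitin genes were above background more often than the array as a whole. Of the 16 members, 11 (68.8%) were above background on at least 1 membrane, against 26.8% of all genes, and 8 of 16 on at least 3 membranes, against 12.8%. Psmb2 alone of the members was above background on all 6 membranes, as were 4.14% of all genes. Of the 16 other spots in array columns F09 and F10, which also hold 12 of the members, 56.25% were above background on at least 1 membrane. On at least 3 membranes the share of these spots, which include cathepsins and proteasomal ATPases, was 37.5%. These shares describe the array and were not tested. Psma5, Psma7, Psmb3, Psmb6 and Psme1 were above background on no membrane, so that their values below are those of spots at background level. No member came near the ceiling of the scale, the highest intensity being 39207.

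**Figure D1:**
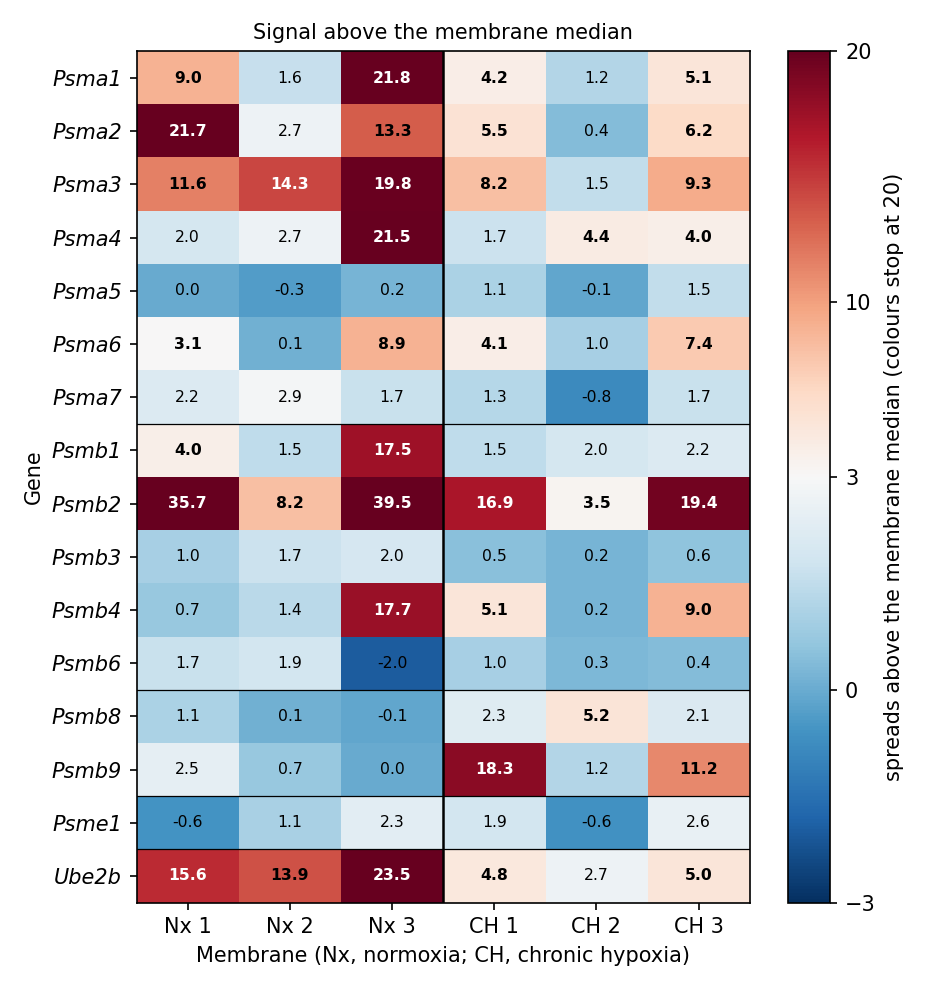
Signal of each of the 16 genes on each membrane, as the number of spreads by which its intensity lay above the membrane median; bold values exceed 3 and count as above background. Columns are normoxia (Nx) and chronic hypoxia (CH) membranes 1 to 3. The columns Nx 2 and CH 2 have 3 bold values each and the other columns 7 to 9.

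The number of members above background varied between membranes of the same group. Normoxia membranes 1 to 3 had 7, 3 and 9 members above background, and chronic hypoxia membranes 1 to 3 had 8, 3 and 9. The low counts fell on normoxia membrane 2 and chronic hypoxia membrane 2. In array section F, which holds 12 of the 16 members, the 184 other genes showed the same drop, with 6 above background on normoxia membrane 2 and 7 on chronic hypoxia membrane 2 against 19 to 31 on the other 4 membranes. The part of this drop in the differences below was not tested.

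No member passed the test between chronic hypoxia and normoxia. Log2 intensities were compared after background correction and quantile normalization with limma, over the 1038 genes that passed a filter on low values, and 0 of the 16 members had an adjusted p under 0.05, as did 0.0% of all tested genes. All 16 members passed the filter. An unadjusted p under 0.05 was reached by 3 members, Ube2b, Psmb8 and Psmb9, which is 18.8% against 7.23% of all tested genes. The count was 1 (Psmb8) with the scan format as a block, where limma unadjusted p was 0.122 for Psmb9 and 0.172 for Ube2b, and with chronic hypoxia membranes 1 and 3 taken as 1. It was 0 without normoxia membrane 2 and without normoxia membrane 3, and 1 (Psmb8) without chronic hypoxia membrane 1 or 3. Of the 16 members 8 were lower in chronic hypoxia, against 48.2% of all tested genes (11 of 16 against 58.4% without normalization), and the median log2 difference was -0.23 against 0.03 for all tested genes. For the 16 other spots of array columns F09 and F10, 10 were lower and the median was -0.21. Directions by class are given as a description, since differences between classes were not tested. Constitutive 20S subunits were lower for 7 of 12 members with a median of -0.53, which was -0.27 without normoxia membrane 3 and -0.91 without normalization. Both immunoproteasome subunits were higher at a median of 1.64, and Ube2b was lower.

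**Figure D2:**
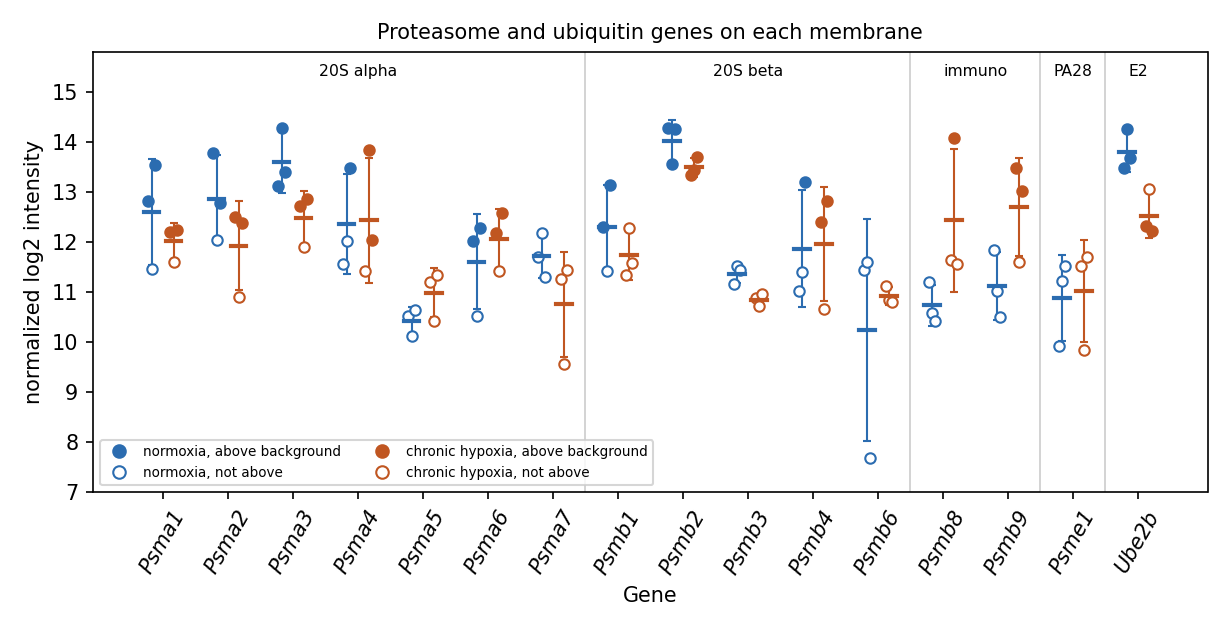
Normalized log2 intensity of the 16 genes on the 3 normoxia (blue) and 3 chronic hypoxia (orange) membranes, with the mean as a thick bar and the SD as an error bar. Filled points are above background and open points are not. Normoxia and chronic hypoxia points do not overlap for Psma3, Psmb3, Psmb8 and Ube2b.

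Among the alpha subunits, Psma1, Psma2 and Psma3 were above background in both groups and had lower means in chronic hypoxia, though none passed the test. These subunits belong to the ring that gates the entrance to the core. Their 3 spots lie side by side on the membrane, with Psma2 between Psma1 and Psma3. Psma3 was brighter than Psma2 on every membrane but normoxia membrane 1. The part of neighbouring spots in these signals was not tested, so the shared direction need not come from 3 separate measurements. Psma3 (component C8) had intensities of 10683, 17202 and 21013 on normoxia membranes 1 to 3 and of 5950, 4954 and 25347 on chronic hypoxia membranes 1 to 3, the last on the membrane with the raised floor. Counted in spreads above the membrane median, Psma3 stood at 11.6, 14.3 and 19.8 in normoxia and at 8.18, 1.55 and 9.34 in chronic hypoxia. On this scale too the groups did not overlap, and chronic hypoxia membrane 2 was the one membrane on which Psma3 was not above background. The normalized log2 intensity of Psma3 was 13.59 ± 0.61 (SD, n = 3) at normal oxygen, against 12.48 ± 0.52 (SD, n = 3) at low oxygen. Psma3 thus differed by -1.10 (SE 0.59) on the log2 scale, or 2.15-fold lower, with a limma adjusted p of 0.645. Non-overlapping groups with the higher values in normoxia were found for 3 members, against 7.42% of all tested genes, and values at least 2-fold lower in chronic hypoxia for 2 members, against 11.4%. The Psma3 difference was -0.38 in the first scan format and -1.94 in the second.

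Psma1 (component C2) and Psma2 (component C3) were each above background on membranes 1 and 3 of both groups and on neither membrane 2. Psma1 had normalized log2 values of 12.82, 11.45 and 13.53 in normoxia and of 12.20, 11.60 and 12.24 in chronic hypoxia, a difference of -0.59 (SE 0.65, limma adjusted p = 0.838). Psma2 had 13.77, 12.04 and 12.77 in normoxia and 12.49, 10.89 and 12.37 in chronic hypoxia, a difference of -0.94 (SE 0.68, limma adjusted p = 0.764). For both genes the groups overlapped, and the highest value lay on a normoxia membrane. Within the scan formats the differences were -0.62 and -0.89 for Psma1 and -1.28 and -1.51 for Psma2. Without normoxia membrane 3 the Psma1 difference was -0.13.

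The other 4 alpha subunits showed no common direction. Psma4 (component C9) was above background on normoxia membrane 3 and on chronic hypoxia membranes 2 and 3, and its difference of 0.07 (SE 0.77) changed sign under no normalization, cyclic loess and median centring (-0.66, -0.33 and -0.50). Its normalized log2 values of 11.57, 12.02 and 13.48 in normoxia and 11.41, 13.83 and 12.04 in chronic hypoxia had 1 high membrane in each group. Psma6 (the iota subunit) was above background on membranes 1 and 3 of both groups and had normalized log2 values of 12.02, 10.53 and 12.27 in normoxia and of 12.17, 11.42 and 12.58 in chronic hypoxia. Membrane 2 was the lowest in each group, and the Psma6 difference was 0.45 (SE 0.65). Inside the formats this difference was 0.15 and 0.016, and without normoxia membrane 2 it was -0.090. Psma5 (zeta) and Psma7 (RC6-1), at background, had log2 differences of 0.56 (SE 0.55) and -0.97 (SE 0.65) that have no fold. The alpha class as a whole had 4 of 7 members lower and a median difference of -0.59, which was -0.13 without normoxia membrane 3, on which 5 of the 7 subunits were above background.

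Of the constitutive beta subunits, Psmb2 was the one above background on every membrane. Psmb2 (RC7-I) is a non-catalytic subunit of the inner ring. Its intensities were 27828, 11279 and 39207 in normoxia and 10472, 6918 and 34971 in chronic hypoxia, or 35.7, 8.17 and 39.5 spreads above the membrane median in normoxia and 16.9, 3.51 and 19.4 in chronic hypoxia. In both groups membrane 2 was the lowest of the 3. The normalized log2 intensity of Psmb2 averaged 14.02 ± 0.41 (SD, n = 3) under normoxia and 13.49 ± 0.19 (SD, n = 3) under chronic hypoxia. The difference of -0.53 (SE 0.54, limma adjusted p = 0.832), 1.45-fold lower, was smaller than its SE. Without normalization the difference was -1.09. By scan format it was -0.94 and -0.46.

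Psmb1 and Psmb4, further non-catalytic subunits of the inner ring, were both above background on normoxia membrane 3, and neither on a membrane 2. Psmb1 (component C5) was above background on normoxia membranes 1 and 3 and on no chronic hypoxia membrane, with intensities of 5275, 4851 and 18840 in normoxia and 2478, 5360 and 18511 in chronic hypoxia. It was the 1 member above background in normoxia alone, against 9.2% of all genes, and its log2 difference was -0.56 (SE 0.62, limma adjusted p = 0.841). The Psmb1 difference was -0.95 in the first scan format and -0.0096 in the second, and -0.12 without normoxia membrane 3. Psmb4 (RN3) was above background on normoxia membrane 3 and chronic hypoxia membranes 1 and 3. Psmb4 had normalized log2 values of 11.01, 11.40 and 13.19 in normoxia and 12.39, 10.67 and 12.82 in chronic hypoxia, so that each group held high and low values. Its difference of 0.10 (SE 0.78) was 1.38 in the first scan format and -1.63 in the second, and it changed sign under no normalization (-0.21) and median centring (-0.058). Psmb3 (RC10-II) had normalized log2 values of 11.15, 11.51 and 11.43 in normoxia against 10.87, 10.71 and 10.95 in chronic hypoxia. These Psmb3 values did not overlap, but all 6 came from spots at background.

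Psmb6, the constitutive catalytic subunit that gives way to Psmb9 in the immunoproteasome, was at background on all 6 membranes. Its normalized log2 values were 11.44, 11.60 and 7.68 in normoxia and 11.11, 10.84 and 10.80 in chronic hypoxia. The value on normoxia membrane 3 was far below the other 5, with an intensity of 824. The difference was 0.68 (SE 0.95) with that membrane and -0.58 without it.

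Promoter sequences of 15 of the 16 members were found by symbol in the RefSeq table of assembly GRCr8. The transcription factor NFE2L1 is known to raise proteasome subunit genes through antioxidant response elements, and the letters TGACNNNGC of that element, searched on both strands of the 250 bases upstream of the gene start, were present in 3 of the 15 members and in 10.1% of all 33469 promoters. The 3 were Psma3 and Psmb2, which had signal on most membranes, and Psmb6, which had none. They are shown with the match in capitals, 5′ to 3′ on the strand of the gene, and end upstream of the gene start.
Psma3, chr6:95219717-95219748, plus strand, match on the opposite strand: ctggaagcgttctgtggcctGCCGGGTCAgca
Psmb2, chr5:144254970-144255018, plus strand: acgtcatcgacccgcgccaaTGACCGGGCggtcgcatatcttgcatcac
Psmb6, chr10:55737844-55737887, plus strand: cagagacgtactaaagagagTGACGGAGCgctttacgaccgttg
Letters of a gamma-interferon activated site (TTCNNNGAA) were present upstream of 1 of the 15 members, the immunoproteasome gene Psmb8, and of 7.67% of all promoters. This window was picked because Psmb8 is one of the members with higher values in chronic hypoxia. Psmb9, which also had higher values, had no such match, and any link of the site to these values was not tested.
Psmb8, chr20:4657248-4657281, minus strand: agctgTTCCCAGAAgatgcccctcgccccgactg
Letters of the interferon-stimulated response element were present for 2 of the 15 (Psma4 and Psmb3) and 3.41% of all promoters. The core of the hypoxia response element (ACGTG) was present for 5 of the 15 (Psma2, Psma4, Psmb3, Psmb4 and Psmb8) and 16.6% of all promoters, with the matches on the 2 strands overlapping in Psma4 and Psmb3. The motifs were searched after the expression values were known, and a match describes letters in the window and no binding.

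Both immunoproteasome subunits had higher means in chronic hypoxia, though neither passed the test. Psmb9 (RING12, also called LMP2) and Psmb8 (LMP7) are interferon-inducible catalytic subunits. Each was above background on 0 of 3 normoxia membranes and on at least 1 chronic hypoxia membrane, which held for no other member and for 4.39% of all genes. Psmb9 had intensities of 4191, 4124 and 2678 in normoxia and of 11199, 4648 and 27155 in chronic hypoxia. Chronic hypoxia membranes 1 and 3 were high, at 18.3 and 11.2 spreads above the membrane median, and chronic hypoxia membrane 2 was at 1.24, below the highest normoxia membrane at 2.48. Its normalized log2 intensity was 11.12 ± 0.67 (SD, n = 3) at normal oxygen, against 12.70 ± 0.98 (SD, n = 3) at low oxygen, a difference of 1.58 (SE 0.67, limma unadjusted p = 0.0381, adjusted p = 0.645). With normoxia values raised to the lowest signal above background on their membranes, the chronic hypoxia mean was 1.67-fold higher, with 2 of 3 chronic hypoxia membranes above background. This ratio is not a lower bound, since chronic hypoxia membrane 2 was itself at background. Chronic hypoxia membranes 1 and 3 are also the pair with the highest correlation of all pairs, and counting them as 1 membrane gave a Psmb9 difference of 1.31 (limma adjusted p = 0.872).

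Psmb8 was above background on the chronic hypoxia membrane on which Psmb9 was not. Its intensities were 3203, 3512 and 2578 in normoxia and 2892, 8597 and 18443 in chronic hypoxia, and chronic hypoxia membrane 2, at 5.19 spreads above the membrane median, was the one above background. Normalized, Psmb8 had 10.73 ± 0.41 (SD, n = 3) at normal oxygen, against 12.43 ± 1.43 (SD, n = 3) at low oxygen, a difference of 1.70 (SE 0.74, limma unadjusted p = 0.0440, adjusted p = 0.645). The groups did not overlap, which in this direction held for 1 member and for 6.45% of all tested genes. Without chronic hypoxia membrane 2 the Psmb8 difference was 0.90. By scan format it was 0.45 and 3.58. For Psmb9 the corresponding values were 2.33 without that membrane and 1.65 and 0.85 within the formats. The 2 immunoproteasome genes and Psmb6 lie side by side on the membrane, and no member of this trio was above background on the same membrane as its neighbour.

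The activator subunit Psme1 (PA28 alpha), which opens the core and is also interferon-inducible, was above background on no membrane. Its normalized log2 values were 9.91, 11.21 and 11.51 in normoxia and 11.52, 9.84 and 11.70 in chronic hypoxia. The chronic hypoxia values spanned the normoxia values, and the difference of 0.14 (SE 0.70) was 1.61 in the first scan format and -1.52 in the second.

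Ube2b was lower in chronic hypoxia in every fit that was run, and passed in none. The same held for Psma1, Psma2, Psma3, Psmb1 and Psmb2, and for Psma7 and Psmb3 at background. Ube2b encodes an E2 enzyme that passes ubiquitin to target proteins and is known for its role with RAD18 in DNA damage tolerance. Its intensities were 13538, 16777 and 24441 in normoxia and 4188, 6085 and 21191 in chronic hypoxia. Counted in spreads above the membrane median, the 3 normoxia membranes stood at 15.6, 13.9 and 23.5 and the 3 chronic hypoxia membranes at 4.79, 2.68 and 5.00, with no overlap. The normalized log2 intensity was 13.80 ± 0.40 (SD, n = 3) at normal oxygen, against 12.52 ± 0.46 (SD, n = 3) at low oxygen, a difference of -1.28 (SE 0.56, limma unadjusted p = 0.0446, adjusted p = 0.645), or 2.42-fold lower. By scan format it was -1.15 and -0.92, and a fit with the format as a block gave -1.02 (limma adjusted p = 0.810). The exact permutation test of 3 against 3 membranes gave p = 0.1, two-sided, the smallest p that it allows. Groups that do not overlap fix this p in advance, so it adds nothing to the non-overlap, and Psma3, Psmb3 and Psmb8 had the same p. The neighbouring spot of the chaperone Pdia4 was brighter than Ube2b on all 6 membranes, with intensities of 42337, 45598 and 65238 in normoxia and 16647, 20929 and 48515 in chronic hypoxia, and its normalized log2 difference was -0.76 (SE 0.58). The part of that neighbour in the Ube2b signal was not tested.

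**Figure D3:**
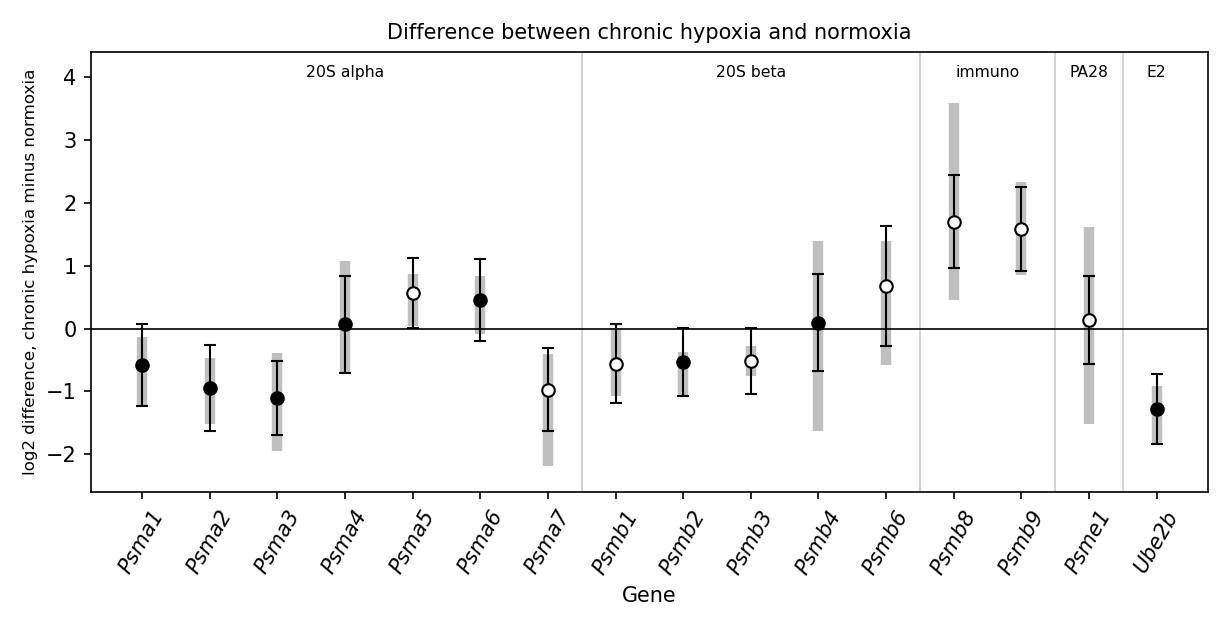
Log2 difference (chronic hypoxia minus normoxia) of the 16 genes with its SE; filled points were above background in both groups and open points were not. Grey bars span the values under the alternative settings. The grey bars of Psma4, Psma6, Psmb4, Psmb6 and Psme1 cross 0, while those of the other 11 genes, some of them at background on every membrane, do not.

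The authors' deposited table, with 1 value per gene and condition, listed many members at 0. In the authors' deposited table, 5 members, all alpha subunits (Psma1, Psma2, Psma3, Psma4 and Psma6), were above 0 in normoxia alone, against 5.99% of all genes, and Psmb9 was above 0 in chronic hypoxia alone, against 10.2%. The authors' deposited table listed Psma1 at 7688, Psma3 at 7629, Psma2 at 5333, Psma4 at 4993 and Psma6 at 2419 in normoxia, and all of them at 0 in chronic hypoxia. On the membranes each of these 5 subunits was above background on 2 chronic hypoxia membranes. In the authors' deposited table, 4 members were above 0 in both conditions, against 11.1% of all genes. The authors' deposited table gave, for normoxia and then chronic hypoxia, Psmb2 21983 and 6742 (a chronic hypoxia to normoxia ratio of 0.307), Psmb1 4163 and 2246 (0.540), Ube2b 16887 and 12882 (0.763) and Psmb4 4212 and 4750 (1.13). Psmb9 was listed at 0 and 5943 in the authors' deposited table, and the other 6 members, Psmb8 among them, at 0 in both. How zeros arose in that table is not given in the sources used here.

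Other genes of the pathway gave a background for these values. The regulatory particle that caps the core and unfolds substrates was represented by 5 ATPases (Psmc1, Psmc3, Psmc5 and 2 spots named for Psmc2 or Psmc4), chosen after the values were seen. All 5 had lower means in chronic hypoxia, with a median of -0.31, but none passed and 3 were above background on no membrane. Their median was 0.07 without normoxia membrane 3 and 0.02 without chronic hypoxia membrane 2. Vhl, the substrate receptor that marks HIF-1 alpha and also chosen after its values were seen, was above background on normoxia membranes 1 and 3 and on no chronic hypoxia membrane. Its normalized log2 values were 12.09, 11.90 and 11.81 in normoxia and 10.81, 11.55 and 11.12 in chronic hypoxia, a difference of -0.78 (SE 0.53, limma adjusted p = 0.764). The polyubiquitin spot of the control row, left out by the rule, had signal on each of the 6 membranes and a log2 difference of 0.21 (SE 0.53).

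Class I antigen presentation genes work with the immunoproteasome. The list used here also holds interferons and other genes of the interferon response, most of which are not part of antigen presentation. Of the 11 genes on this mixed list, 2 exceeded background on at least 1 membrane, against the 26.8% of all genes given above. On 3 or more membranes 0 did so. Chronic hypoxia had the higher mean for 8 of 11, with a median of 0.75 (0.36, with 5 of 11 lower, in the first scan format), and none passed. The peptide transporter genes Tap1 and Tap2 were at background throughout and differed by 0.78 (SE 0.58) and 1.40 (SE 0.56, limma adjusted p = 0.645). Irf1, a transcription factor that induces the immunoproteasome, was likewise at background throughout. Its difference was -0.03 (SE 0.72), with -0.83 in the first scan format and 1.37 in the second. Of 20 immune cell markers, 2 (both mast cell proteases) were above background on any normoxia membrane and 0 on any chronic hypoxia membrane, and the leukocyte antigen Ptprc was at background on all 6. The summed intensity of the 20 markers was between 46418 and 69791 in normoxia and between 33694 and 326248 in chronic hypoxia, the highest on the membrane with the raised floor. These sums rose with the median of the membrane and thus mostly describe background. Of the 19 tested markers 11 had the higher mean at low oxygen, and the median difference was 0.08. The list first held 14 markers, of which 9 of 13 tested were higher with a median of 0.74, and 6 that the list's rule covers were added after that result was known. The median thus depended on the makeup of the list, and that of the longer list was -0.13 without normalization, -0.045 with cyclic loess and -0.025 without chronic hypoxia membrane 2.

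Lists of chaperones, other proteases and proteasome substrates had 0 genes that passed. Of 6 chaperones 5 had the higher mean at low oxygen (median difference 0.61). That median was 0.10 in the first scan format, with 3 of 6 lower, 0.24 with the format as a block, 0.31 without normoxia membrane 3, 0.38 without chronic hypoxia membrane 3 and 1.02 without normoxia membrane 1. The mitochondrial chaperonin Hspd1 differed by 1.55 (SE 0.63), Hsp90ab1 by 0.92 (SE 0.76) and the endoplasmic reticulum chaperone Hspa5 by 0.08 (SE 0.70), while Pdia4 was lower. The Hsp90ab1 difference was 0.89 in the first scan format and -0.31 in the second. Of 10 tested genes of lysosomal and other proteolysis 7 were higher, with a median of 0.22, among them the cathepsins Ctsk (0.66, SE 0.62), Ctsh (0.40, SE 0.78) and Ctsc (0.29, SE 0.79), and the caspase Casp1 (0.23, SE 0.65). All 4 changed sign between the first and second scan formats, Ctsk from -0.12 to 0.87, Ctsh from -1.54 to 2.24, Ctsc from 0.20 to -0.76 and Casp1 from 1.62 to -1.17. The list's 2 genes with an unadjusted p under 0.05 were both lower: Ctsb, at background on all 6 membranes, by -2.24 (SE 0.68, limma adjusted p = 0.645), and Ctsl, above background on 1 normoxia membrane, by -1.89 (SE 0.68, limma adjusted p = 0.645). The median was -0.12 without normalization, -0.029 with the format as a block, -0.078 and -0.44 in the first and second formats and between -0.19 and 0.36 when each membrane was left out. Of 14 genes whose proteins the proteasome is known to turn over, 9 were lower, with a median of -0.38. In the first and second formats that median was 0.034 and 0.091, with the format as a block it was -0.12, and without normoxia membrane 1 or 2 it was -0.62 or -0.18. Cyclin B1 (Ccnb1) differed by -1.46 (SE 0.72; -0.054 and -3.25 by scan format) and cyclin G (Ccng1) by -1.14 (SE 1.01; -0.18 and 0.18 by scan format), against 0.90 (SE 0.88) for Jun and 0.64 (SE 0.68) for cyclin C (Ccnc).

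**Figure D4:**
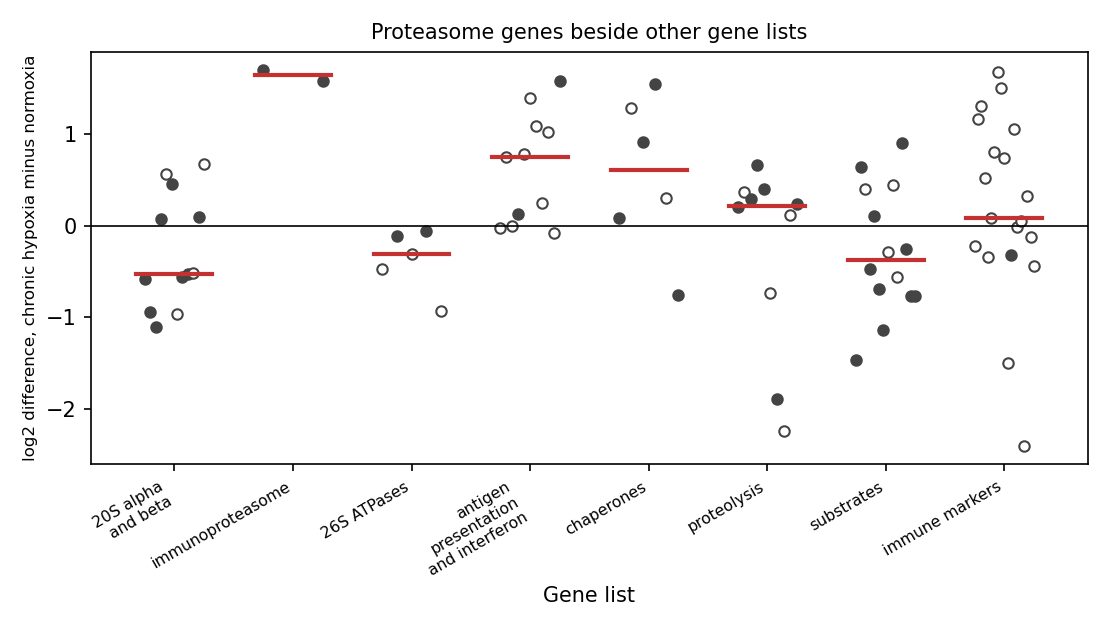
Log2 difference (chronic hypoxia minus normoxia) of each gene of the constitutive 20S core, the immunoproteasome and the other lists, with the median as a red line. Filled points were above background on at least 1 membrane and open points on none. The medians are -0.53 for the 20S core, 1.64 for the 2 immunoproteasome genes, -0.31 for the ATPases and 0.75 for the antigen presentation and interferon genes.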

How the data were processed

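Per the labels' protocols, amplified RNA was reverse transcribed with 32P-labelled dCTP, hybridised to Atlas Rat 1.2 membranes and quantified from a phosphorimager with AtlasImage V2.0. The deposited membrane files hold 1 linear intensity per gene with background included and no normalization between membranes. The authors also deposited a table of 1 intensity per gene and condition; the design text describes quantification as the average of 3 membranes with a normalization coefficient from the mean signal.

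Each membrane was corrected with normexp (offset 50), log2 transformed and quantile normalized. Genes above the 25th percentile on at least 3 of 6 membranes were tested with limma 3.58.1 (lmFit and eBayes, R 4.3.3), with group as the model's single factor and p-values adjusted by Benjamini-Hochberg across 1038 genes. A fold between group means is given where each group had at least 1 membrane above background. The ratio for Psmb9 instead replaces normoxia values by the lowest signal above background on the same membrane. Python 3.11.15, pandas 2.3.3 and scipy 1.17.1 did the rest. The fit was also run on simulated data with less noise than these membranes, which cannot tell how it performs at the noise seen here. The number of membranes limits the precision of every value.

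The members and lists were chosen with earlier results of these data known. All members are named, and of the other lists up to 4 members above background on at least 3 membranes with the smallest p. Pdia4, Ctsb, Ctsl, Tap1, Tap2, Irf1, Ptprc, Vhl and the ATPases were named after their values were seen. List rules were words in the deposited names; unrelated matches were left out by hand, and 6 leukocyte markers missed at first were added to the immune list after its result was known. The deposited values have no genome build. Alternatives were other scalings, background corrections and filters, membrane weights, blocks and leaving out each membrane.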

Additional observations from a re-analysis of the deposited data

How the results depend on the processing

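Under the 17 alternatives with a test (fewer for a member that a filter dropped), no member passed, the lowest limma adjusted p being 0.185 (Psmb9 with membrane weights). The within-format values have no test. For 11 of the 16 members the sign held under every alternative that was run, and 27 values of the other 5 members changed sign. Changing the filter or taking the membrane number as a block cannot alter a member's difference, and the other alternatives reuse the same membranes. No share over all genes stands beside this count, so it is a description of the members alone. Over all genes 0 passed under every alternative run with a test, with 75 genes at an unadjusted p under 0.05 in limma, 146 with membrane weights, 42 without chronic hypoxia membrane 3 and 10 of 152 where signal on at least 3 membranes was required. Psma4 (0.07) was -0.66 without normalization, -0.33 with cyclic loess, -0.50 with median centring, -0.66 with membrane weights and -0.16 within the first scan format. Psmb4 (0.10) was -0.21 without normalization, -0.058 with median centring, -0.34 with the scan format as a block, -0.23 with chronic hypoxia membranes 1 and 3 as 1 and -1.63 within the second format. Psme1 (0.14) was -0.10, -0.18, -0.16 and -1.52 without normalization, with the format block, with those membranes as 1 and within the second format. Psmb6 (0.68) was -0.33 within the first format. Leaving out each membrane gave -0.70 to 0.62 for Psma4, -0.090 to 0.83 for Psma6, -0.33 to 0.81 for Psmb4, -0.58 to 1.38 for Psmb6 and -0.35 to 0.76 for Psme1. The median of all members moved from -0.23 to -0.70 and that of the alpha class from -0.59 to -1.06 without normalization, where the median of all genes shifted to -0.17 and 58.4% of tested genes were lower. The alpha median was between -0.74 and -0.13 when each membrane was left out. The immunoproteasome median of 1.64 was 1.09 without background correction, 1.05 within the first format and 2.21 within the second. In the authors' deposited table Psma4 (-4993) and Psma6 (-2419) had the opposite direction. The causes were not tested.

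With a background limit of 2 or 5 spreads, 14 and 11 members were above background on at least 1 membrane, against 38.1% and 19.7% of all genes. Centring by array section was added after the data were seen and gave -0.98 for Ube2b. Same-numbered membranes share a number only: their deviations correlated at 0.091, 0.114 and 0.023, and normoxia membrane 3 correlated best with chronic hypoxia membrane 1 (0.033). With the number as a replicate block 0 genes passed and 83 had an unadjusted p under 0.05.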
